A study of Mus musculus with 2 samples.

Results

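The imprinted Dlk1-Meg3 cluster of mouse chromosome 12 was read in mouse embryonic stem (ES) cells with overexpression of the pluripotency factor Klf5, which binds DNA through zinc fingers. Its 4 members, of 18193 genes on the arrays, were read by every probe set annotated to the single symbol Meg3, Rian, Mirg or Dlk1, which came to 19 of 45037 probe sets. Meg3 had 11 of them, Rian had 4, Mirg had 2 and Dlk1 had 2. The genes were chosen by their signals in the same 2 arrays, for a difference between the clones that they shared, so their clone differences are a description and carry no test. The samples were Klf5-overexpressing clone 2 and Klf5-overexpressing clone 1, both of E14 ES cells kept undifferentiated in ES medium with 15% fetal bovine serum and LIF (leukaemia inhibitory factor, a cytokine that sustains self-renewal), and each clone was hybridised to 1 Affymetrix expression array. The promoter of the Klf5 construct and the number of passages were not given in the sources used here. This study set these clones against wild-type clones of an earlier series, which were not analysed here, so the data below show how the cluster differs between the clones and not what Klf5 does to it.

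An imprinted gene is expressed from the allele of one parent. In this cluster the protein-coding genes Dlk1, Rtl1 and Dio3 are expressed from the paternal chromosome. The non-coding RNAs Meg3 (also called Gtl2), Rian and Mirg are expressed from the maternal one, in the same orientation and widely held to be parts of one long transcription unit. An intergenic region between Dlk1 and Meg3, methylated on the paternal chromosome, sets the pattern. Among mouse pluripotent cell lines the maternal RNAs are known to be expressed in some and silenced in others, in which the region has gained methylation on both chromosomes. DNA methylation and the parental origin of the RNA were not measured here.

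The RNAs of the maternal chromosome are hosts of small RNAs. By the RefSeq positions of assembly GRCm38.p6, 3 mature microRNAs of 2 microRNA genes lay within Meg3, 6 of 3 genes within Rian and 19 of 10 genes within Mirg, all on the strand of the host. Rian also carries box C/D small nucleolar RNAs, and Mirg is named for its microRNAs. The arrays read the long hosts and not the mature microRNAs. The following RefSeq sequences, from 5′ to 3′ with the seed (bases 2 to 8) in capitals, are shown because they are the small RNAs that the measured hosts carry. The first lies in Meg3, the next 3 in Rian and the rest in Mirg.
miR-770-5p: aGCACCACgugucugggccacg
miR-370-3p: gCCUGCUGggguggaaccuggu
miR-341-3p: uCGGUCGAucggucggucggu
miR-1188-5p: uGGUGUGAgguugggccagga
miR-410-3p: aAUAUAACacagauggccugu
miR-409-3p: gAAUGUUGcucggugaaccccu
miR-369-3p: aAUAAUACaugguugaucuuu
miR-453: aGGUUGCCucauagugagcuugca
miR-496a-5p: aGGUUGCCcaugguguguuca
Among the mature microRNAs inside the hosts, 1 seed was shared by 2 names, miR-453 and miR-496a-5p, both in Mirg.

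The start of Meg3 is shown because the non-coding members were all higher in clone 2 and Meg3 is the most upstream of them. At the first of its annotated starts the window runs from 250 bases before the annotated start to 50 bases after it, at chr12:109540746-109541045 on the plus strand of GRCm38.p6, from RefSeq. Capitals mark matches, on either strand, to 5 sequences: the cAMP response element TGACGTCA, the TATA box TATAAA, the CACCC box type CCNCNCCC that Klf factors bind, the CCAAT box CCAAT, and TGCCGC, the hexamer of the imprint-protecting factor ZFP57. The GC box GGGCGG was searched as well.
Meg3: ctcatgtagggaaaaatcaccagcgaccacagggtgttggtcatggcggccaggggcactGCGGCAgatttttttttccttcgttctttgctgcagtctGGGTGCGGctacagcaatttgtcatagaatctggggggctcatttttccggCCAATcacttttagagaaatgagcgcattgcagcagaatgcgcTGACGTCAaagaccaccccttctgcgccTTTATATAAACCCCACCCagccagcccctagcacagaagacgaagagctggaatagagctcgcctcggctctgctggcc
The window of Dlk1, at chr12:109452573-109452872 on the plus strand, is the reciprocally imprinted gene's and is given for comparison.
Dlk1: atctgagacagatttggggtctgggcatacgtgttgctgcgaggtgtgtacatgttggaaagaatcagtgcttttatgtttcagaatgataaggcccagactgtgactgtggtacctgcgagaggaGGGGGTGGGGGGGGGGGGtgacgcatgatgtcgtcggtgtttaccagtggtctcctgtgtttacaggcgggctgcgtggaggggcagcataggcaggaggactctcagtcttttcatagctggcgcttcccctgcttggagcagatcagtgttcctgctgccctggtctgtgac
The Meg3 window held 1 cAMP response element, starting 57 bases before the start site. This sequence was found in 1.79% of the 32851 promoter windows of the same length in the RefSeq table. Near the start the Meg3 window also held 2 overlapping TATAAA matches, 1 on each strand, and this box was present in 13.6% of all windows. The CACCC type matched at 2 places in the Meg3 window and at 7 overlapping places in 1 G-rich run of the Dlk1 window. Most of the Dlk1 matches are G throughout, which the open positions (N) of the type allow, and hold no CACCC on either strand. The type was present in 49.5% of all windows. The ZFP57 hexamer matched once in the Meg3 window and in 11.6% of all windows. The CCAAT box matched once there and in 37.4% of all windows, and the GC box, held by 35.7%, had no match in the windows of the 4 genes. The windows of Rian and Mirg and that of a second annotated Meg3 start held no cAMP response element, TATAAA or ZFP57 hexamer, and the second Meg3 window had 10 CACCC matches, some overlapping. A match describes the letters in the window and does not show that a factor binds.

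Signals are the authors' deposited values, taken as log2, and differences are clone 2 minus clone 1. Probe sets have different affinities, so levels were not compared between genes. A background level was set for each array at the 95th percentile of the signals of 49 genes of adult tissues (77 probe sets), such as caseins and lens crystallins. This level was 6.29 in clone 2 and 6.65 in clone 1. Each clone has 1 array, which leaves nothing to estimate an error from, so no p-value is given, and "2-fold" below is a rule of size with the higher clone above its background. The labels do not say whether the clones were cultured or hybridised together, so clone, culture and array cannot be told apart.

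The label of the cells was checked on markers. All 12 markers of undifferentiated ES cells, among them Pou5f1, Nanog and Zfp42, were above background in both clones. Klf5 itself was read by 3 probe sets. Its top probe set was at 12.25 in clone 2 and 11.61 in clone 1, the next 7.26 in clone 2 and 6.97 in clone 1, and the third, 4.77 in clone 2 and 4.81 in clone 1, was below background. The part of this Klf5 difference in that of the cluster was not tested. Over all genes with a single-symbol probe set, 48.2% were above background in both clones. For the 17021 probe sets that exceeded background in 1 clone or both, the clone difference had a median of 0.09 and an SD of 0.281, and 63.5% had the higher signal in clone 2.

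Of the 19 probe sets of the cluster, 7 were above background in both clones, 3 in clone 2 alone and 9 in neither; over all single-symbol probe sets of the arrays, 39.8% were above background in both clones. All 7 that passed in both clones were higher in clone 2, by 0.47 to 1.26 and with a median of 0.88, and they belonged to Meg3, Rian and Mirg. The 9 that passed in neither clone had a median difference of 0.01, with 5 higher and 4 lower in clone 2. By the deposited values, 5 of the 19 (4 of Meg3 and 1 of Mirg) were at least 2-fold higher in clone 2 and 0 were 2-fold lower. Only 3 of these 5, all of Meg3, were above background in both clones. For the other 2, dim in clone 1, only a bound can be given, and it is under 2-fold for both. Under quantile normalization or loess, 3 of the 19 were 2-fold higher. By the same rule on deposited values, of those 17021 probe sets 0.593% were 2-fold higher and 0.0881% were 2-fold lower in clone 2. At 1.5-fold the deposited values gave 7 of the cluster higher in clone 2, against 4.96% of the 17021. The rule chose these genes for this contrast, so the counts describe the choice.

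**Figure D1:**
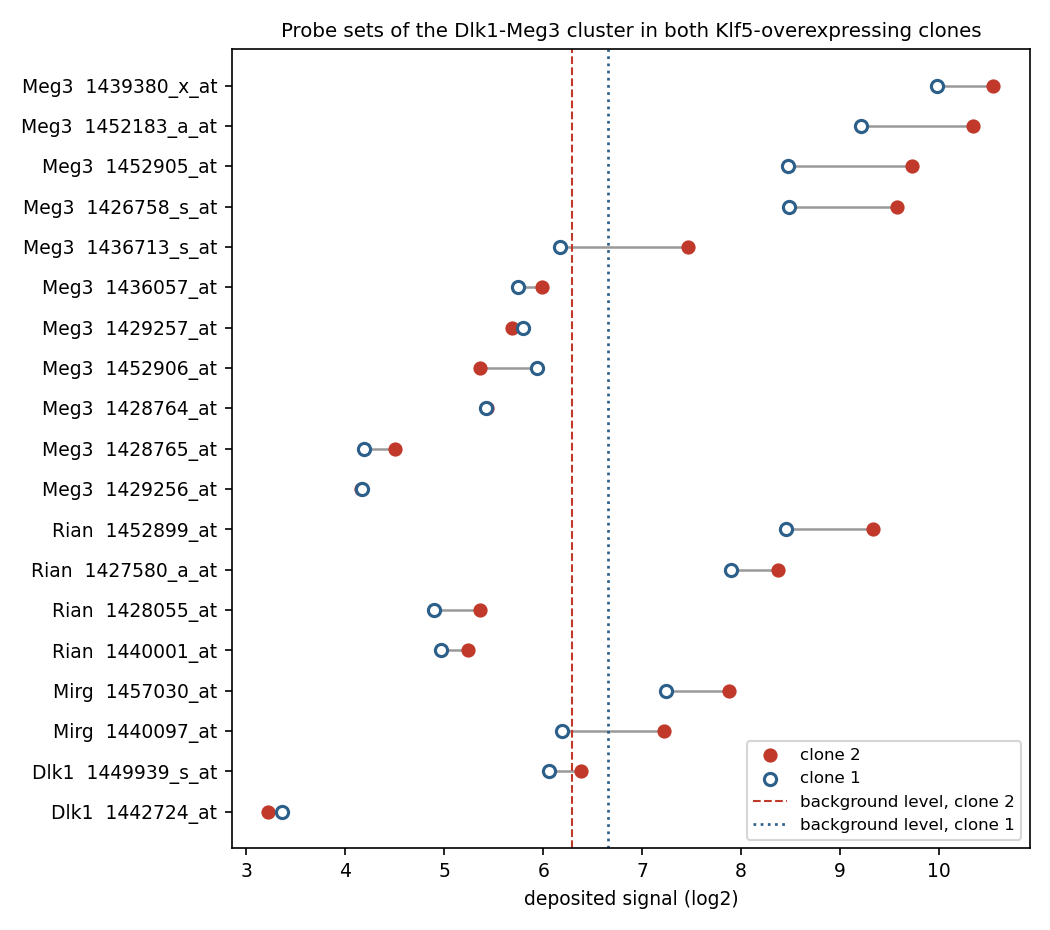
Deposited log2 signal (x axis) of each of the 19 probe sets of Meg3, Rian, Mirg and Dlk1 (rows, brightest first within a gene) in clone 2 (filled) and clone 1 (open), 1 array each, with the background level of each array as a vertical line. The 7 probe sets above both lines in both clones all have clone 2 to the right of clone 1, while the 9 that stay below lie close together or in either order.

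Meg3, a long non-coding RNA expressed from the maternal chromosome and reported to act as a growth suppressor, was above background in both clones by 4 of its 11 probe sets. The probe set 1452905_at gave 9.73 in clone 2 and 8.47 in clone 1 with a mean of 9.10 ± 0.89 (SD, n = 2), and the difference was 1.26 or 2.39-fold. Clone 2 was the higher one, by 4.84 times the SD of the clone difference among the 3117 probe sets whose mean signal lay within 0.5 of its own. Only 30 probe sets of the 17021 (0.176%) differed by at least as much in that direction. The members were chosen for this difference, so such multiples and shares, here and below, describe the choice and test nothing.

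The other bright Meg3 probe sets had the same direction. The probe set 1452183_a_at gave 10.34 in clone 2 and 9.21 in clone 1, 2.19-fold. The probe set 1426758_s_at, designed on the same GenBank record, gave 9.58 in clone 2 and 8.48 in clone 1, 2.14-fold. The brightest Meg3 probe set, 1439380_x_at, gave 10.55 in clone 2 and 9.98 in clone 1, 1.48-fold. It is of a class of probe sets that can bind several transcripts, and its difference was the smallest of these 4, and 5.56% of the 17021 probe sets had one of that size or more. One more, 1436713_s_at, was 7.46 in clone 2 and 6.17 in clone 1, where it was below background. Against the clone 1 background level it was at least 1.75-fold higher in clone 2.

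The remaining 6 Meg3 probe sets were below background in both clones, between 4.16 and 5.99 in clone 2 and between 4.17 and 5.94 in clone 1. Of these, 3 were higher and 3 lower in clone 2. The largest of their differences was that of 1452906_at, 5.36 in clone 2 and 5.94 in clone 1. Probe sets of one GenBank record did not always read alike: besides 1452905_at, the same record gave 1428764_at, at 5.43 in clone 2 and 5.42 in clone 1, and 1428765_at, at 4.50 in clone 2 and 4.19 in clone 1, both below background. The sources used here do not say which part of Meg3 each probe set reads.

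Rian, the host of the small nucleolar RNAs, was above background in both clones by 2 of its 4 probe sets. The brighter, 1452899_at, gave 9.33 in clone 2 and 8.45 in clone 1, a 1.84-fold difference around a mean of 8.89 ± 0.62 (SD, n = 2). The other, 1427580_a_at, gave 8.37 in clone 2 and 7.90 in clone 1, 1.39-fold. Both were higher in clone 2 and neither reached 2-fold. A difference of this size or more in that direction was found in 1.05% of the 17021 probe sets for the first and in 9.70% for the second, so the second lies within the common range of differences between these arrays. The 2 dim Rian probe sets, 1428055_at at 5.36 in clone 2 and 4.90 in clone 1 and 1440001_at at 5.24 in clone 2 and 4.97 in clone 1, had the same direction below background.

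Mirg, the microRNA host at the far end of the non-coding unit, was read by 2 probe sets. The probe set 1457030_at gave 7.88 in clone 2 and 7.24 in clone 1, a 1.56-fold difference around a mean of 7.56 ± 0.45 (SD, n = 2), and was above background in both. The probe set 1440097_at gave 7.22 in clone 2 and 6.19 in clone 1, below background there, which makes it at least 1.48-fold higher in clone 2. Both had the higher signal in clone 2. The deposited difference of the second, 1.03, met the 2-fold rule only through a clone 1 signal below background. Among probe sets above background in both clones, the nearest inside 2-fold was the Meg3 probe set 1426758_s_at at 1.10, and the nearest outside was the brighter Rian probe set at 0.88.

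Dlk1, the paternally expressed member, encodes a membrane protein with epidermal growth factor-like repeats that resembles Notch ligands and restrains adipocyte differentiation. Its probe set 1449939_s_at gave 6.38 in clone 2 and 6.06 in clone 1 (6.22 ± 0.23, SD, n = 2). It passed in clone 2 only because the background level there is lower, since 6.38 is under the clone 1 level of 6.65, and no fold is given. The difference of 0.32 was 0.887 times the SD among probe sets of like signal, and 20.1% of the 17021 probe sets had one of that size or more. The other Dlk1 probe set, 1442724_at, was 3.22 in clone 2 and 3.36 in clone 1. Dlk1 was thus just above background in clone 2 by 1 probe set and below background in clone 1, and its clone difference was not resolved from the spread of the arrays. Taking the brightest probe set per gene, the order of the differences was Rian 0.88, Mirg 0.64, Meg3 0.57 and Dlk1 0.32, but the probe sets of Meg3 alone spanned 0.57 to 1.26 among those above background in both clones, so the order of Rian, Mirg and Meg3 was not resolved. In RNA of whole cultures, fewer expressing cells and less RNA per cell cannot be told apart.

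**Figure D2:**
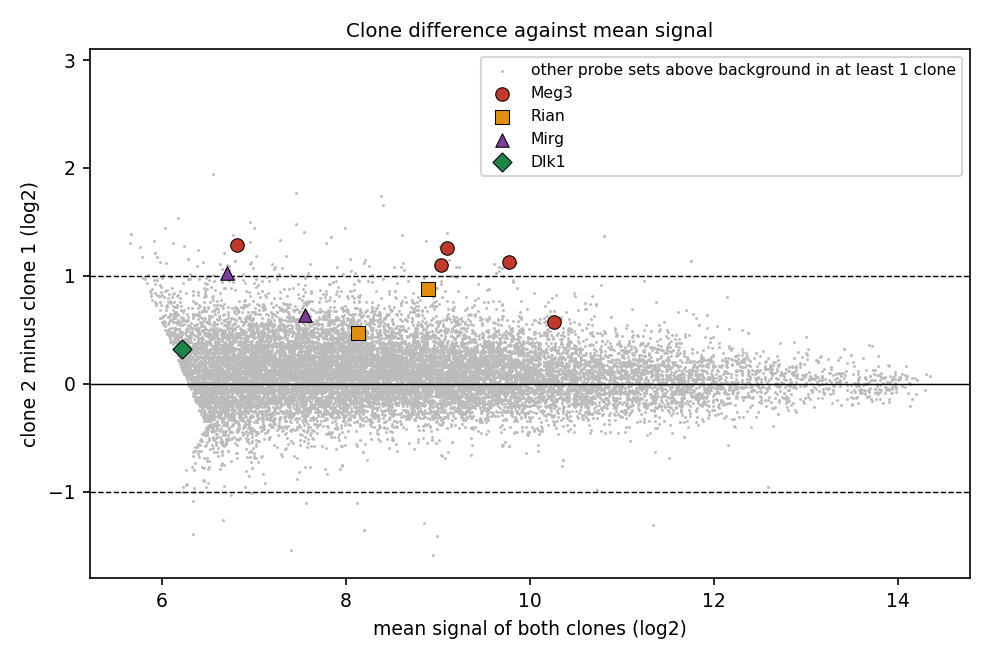
Clone difference (y axis, clone 2 minus clone 1, log2) against the mean signal of both clones (x axis, log2) for the 17021 probe sets that exceeded background in 1 clone or both (grey), with the 10 such probe sets of the cluster marked by gene and 2-fold shown by dashed lines. The Meg3 probe sets, except the brightest at 0.57, lie above 1, the Rian and Mirg probe sets between 0.47 and 1.03, and Dlk1 at 0.32 near the background edge.

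The other coding genes of the cluster, Rtl1 and Dio3, and the nearby Begain had no single-symbol probe set in the tables used here and were not analysed. The 15 measured genes before Dlk1 and the 15 after Mirg, in the order of GRCm38.p6, were taken as the neighbourhood. Of these 30 genes, 14 were above background in at least 1 clone, and their median difference was 0.04, against 0.09 over all 9614 such genes. This median was -0.06 under quantile normalization and -0.05 under loess, so its direction depends on the scaling. Among those 9614 genes, 0.364% were 2-fold higher in clone 2 and 0.0832% were 2-fold lower. Clone 2 had the higher signal for 63.8% of them, and for 10 of the 14 neighbours.

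The nearest readable genes before Dlk1 were close in the clones, and the nearest after Mirg was higher in clone 2. Wars, a tryptophanyl-tRNA synthetase and the second measured gene before Dlk1, was 9.37 in clone 2 and 9.34 in clone 1. Yy1, a zinc finger transcription factor, was 11.58 in clone 2 and 11.54 in clone 1. On the far side Ppp2r5c, a regulatory subunit of protein phosphatase 2A and the third measured gene after Mirg, was 11.13 in clone 2 and 10.76 in clone 1, and 5 of its 7 probe sets were higher in clone 2. Its largest difference was at a dimmer probe set, 8.07 in clone 2 and 7.46 in clone 1, about that of the Mirg probe set 1457030_at. The genes closest to the cluster, Wdr25 on one side (5.86 in clone 2 and 5.99 in clone 1) and 3110009F21Rik (3.59 in clone 2 and 3.18 in clone 1) and Dio3os (5.58 in clone 2 and 5.56 in clone 1) on the other, were below background in both clones. These 3 and Wars were named after their values were seen.

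One neighbour reached 2-fold. Evl, an actin regulator of the Ena/VASP family and the eighth measured gene before Dlk1, was 8.48 in clone 2 and 7.46 in clone 1, 2.03-fold, by its brightest probe set. Another Evl probe set above background in both clones was 6.96 in clone 2 and 6.69 in clone 1, 1.21-fold. Between Evl and Dlk1 the 2 genes above background, Yy1 and Wars, differed by 0.04 and 0.03. Further along, Hsp90aa1, a chaperone, was 13.86 in clone 2 and 13.70 in clone 1, and Cinp, a cyclin-dependent kinase 2 interacting protein, 9.65 in clone 2 and 9.38 in clone 1.

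Chromosome 12 as a whole had the median difference of all genes. Without the 4 members, its 344 genes above background in at least 1 clone had a median difference of 0.09, and over 20 chromosomes the medians ran from 0.05 to 0.11. Of those 344 genes, 4 were 2-fold higher in clone 2 and 0 were 2-fold lower. The share that was higher exceeded the 0.364% of all 9614 genes above background in at least 1 clone, of which 0.0832% were lower. The 4 were Evl, Arid4a, Six4 and Rps6ka5, the last pair being a homeobox factor and a stress-activated kinase chosen after their values were seen. Six4 was 8.80 in clone 2 and 7.71 in clone 1 by its brightest probe set, 8.78 in clone 2 and 7.63 in clone 1 by the next, and 7.28 in clone 2 and 7.87 in clone 1, in the other direction, by another. Rps6ka5 was 7.77 in clone 2 and 6.69 in clone 1 by its brightest probe set and 6.49 in clone 2 and 6.50 in clone 1 by another.

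**Figure D3:**
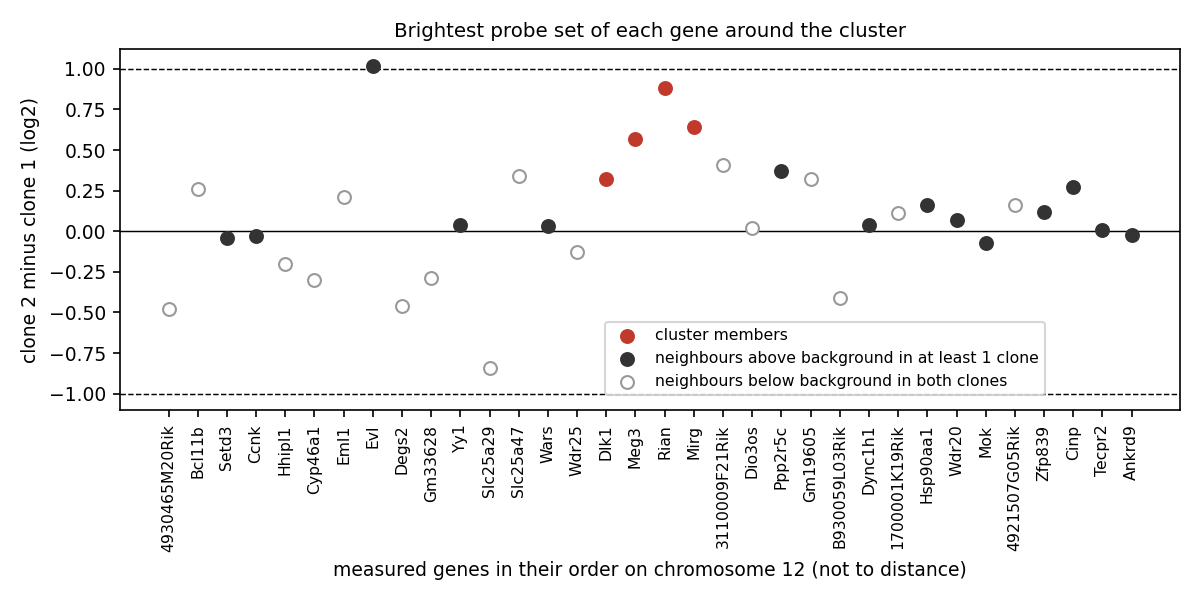
Clone difference (y axis, clone 2 minus clone 1, log2) of the brightest probe set of each measured gene, placed in gene order along chromosome 12 (x axis, not to distance), with the members filled red, neighbours above background in at least 1 clone filled dark and neighbours below background in both clones open; dashed lines mark 2-fold. Rian, Mirg and Meg3 form a group at 0.57 to 0.88, and apart from Evl at 1.02 the dark neighbours lie between -0.07 and 0.37.

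Imprinted genes outside the cluster were compared as a list. Of 48 measured, 33 exceeded background, 30 of them in both clones, and among these 33 the median difference was 0.05, with 21 higher and 12 lower in clone 2. This is near the 63.8% higher in clone 2 over all 9614 genes above background in at least 1 clone. The direction of that median turned to -0.06 under quantile normalization and -0.04 under loess. None of the 33 was 2-fold higher in clone 2, against 0.364% of all 9614 genes, and 3 were 2-fold lower, against 0.0832%. These were Cdkn1c, an inhibitor of cyclin-dependent kinases (6.64 in clone 2 and 8.18 in clone 1), Phlda2, a regulator of placental growth (8.20 in clone 2 and 9.49 in clone 1), and Igf2, a fetal growth factor (5.64 in clone 2, below background, and 7.03 in clone 1). Against the clone 2 background level Igf2 was at least 1.67-fold lower there, a bound short of 2-fold.

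The other imprinted genes were also read by parent of origin. Genes known to be maternally expressed in at least some tissues, like Meg3, Rian and Mirg, had a median difference of -0.11 over the 14 above background in at least 1 clone, with 6 higher and 8 lower in clone 2. Those known to be paternally expressed had 0.11 over 15, with 12 higher and 3 lower, and this median was -0.02 under quantile normalization. Of all 9614 genes above background in at least 1 clone, 63.8% were higher in clone 2. The maternally expressed Cdkn1c, Phlda2, Slc22a18, Ascl2, Tssc4 and Tspan32, all on chromosome 7, were lower in clone 2. Cd81 and Ube3a, also there, were higher. On other chromosomes Igf2r and Copg2 were lower by their brightest probe sets, and Grb10, Trappc9, Ppp1r9a and H13 higher. Igf2r was 7.87 in clone 2 and 8.50 in clone 1 by that probe set. By its other probe set, also above background in both clones, Igf2r was 7.37 in clone 2 and 6.84 in clone 1, in the other direction. The maternal median thus rests largely on chromosome 7. Tspan32, a tetraspanin of distal chromosome 7, was 6.67 in clone 2 and 7.34 in clone 1. The brightest genes of the imprinted list lay close together in the clones: Cd81 was 11.48 in clone 2 and 11.32 in clone 1, Ube3a, a ubiquitin ligase, 10.93 in clone 2 and 10.90 in clone 1, and Gnas, a G protein subunit, 10.86 in clone 2 and 10.87 in clone 1. Slc38a4, an amino acid transporter, was 11.22 in clone 2 and 10.78 in clone 1.

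One other imprinted host of small nucleolar RNAs differed 2-fold. Snhg14, a paternally expressed non-coding RNA that runs antisense to Ube3a, was outside the list and was chosen after its values were seen. It was 9.62 in clone 2 and 8.56 in clone 1 by its brightest probe set, 2.08-fold. Its other 2 probe sets, at 4.71 in clone 2 and 4.57 in clone 1 and at 3.19 in clone 2 and 3.00 in clone 1, were below background.

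Most of the other long non-coding RNAs above background were lower in clone 2 by their brightest probe sets. Of 25 measured, 16 were above background in at least 1 clone, 6 of them higher and 10 lower in clone 2. Their median difference was -0.10. Of all 9614 genes above background in at least 1 clone, 63.8% were higher in clone 2. The list median became -0.01 with arrays centred on their medians and -0.17 under quantile normalization. The 6 higher were Kcnq1ot1, Tug1, Snhg11, Pvt1, Dancr and Snhg12. The largest of these differences was 0.37, for Kcnq1ot1, which was below background in clone 1. Snhg8 was 10.82 in clone 2 and 11.35 in clone 1, Snhg3 9.58 in clone 2 and 9.98 in clone 1, and Snhg1 10.68 in clone 2 and 11.05 in clone 1; these 3 are hosts of small nucleolar RNAs. Gas5, another such host, was 11.11 in clone 2 and 11.26 in clone 1, and Snhg6 was 10.65 in clone 2 and 10.66 in clone 1. Xist, the RNA of X inactivation, was 8.19 in clone 2 and 8.70 in clone 1 by 1 probe set and below background by the other 2.

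Malat1, a nuclear RNA, was read in both directions by its own probe sets. The brightest was at 7.58 in clone 2 and at 8.34 in clone 1, while 4 of the 5 that exceeded background in 1 clone or both were higher in clone 2. One of those was 8.25 in clone 2 and 6.84 in clone 1, 2.66-fold. The sign of a non-coding RNA's difference on these arrays can thus depend on the probe set.

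**Figure D4:**
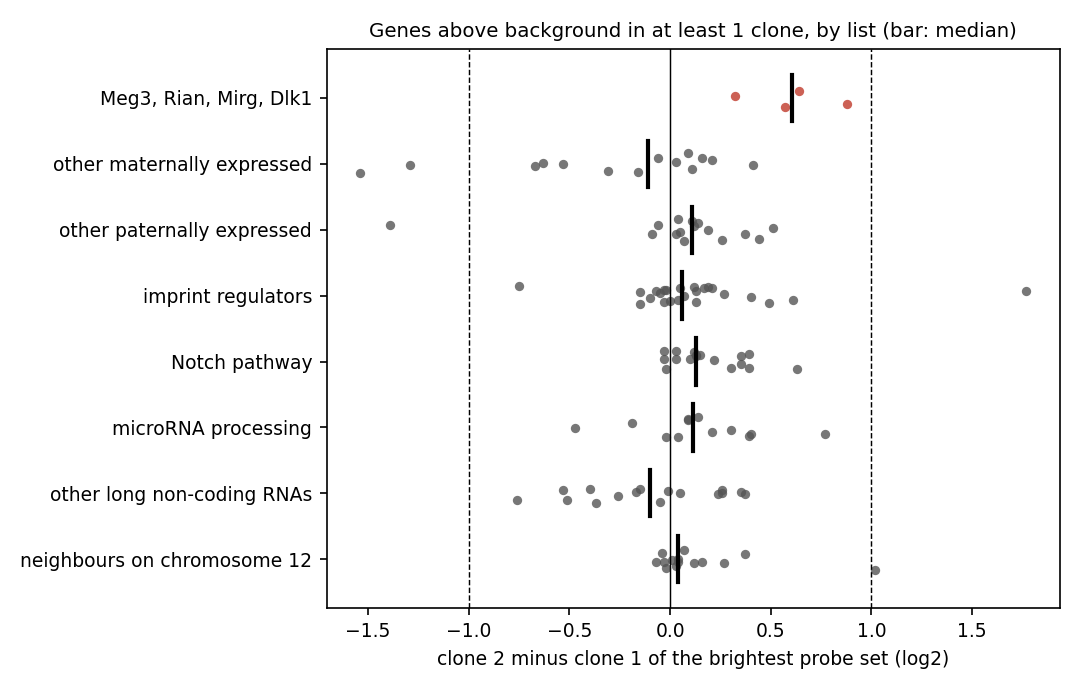
Clone difference (x axis, clone 2 minus clone 1, log2) of the brightest probe set of each gene above background in at least 1 clone, by list (rows), with the median of each list as a bar and 2-fold as dashed lines. The 4 members lie at 0.32 to 0.88, and the medians of the other lists lie between -0.11 and 0.13.

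Factors that write, protect or read the imprint were above background for 24 of 26 genes measured, 23 of them in both clones. The median difference of these 24 was 0.06, with 14 higher, 9 lower and 1 equal in clone 2, against a median of 0.09 and 63.8% higher over all such genes. The brightest were Trim28, the co-repressor that ZFP57 recruits to imprinted regions (13.21 in clone 2 and 13.26 in clone 1), and Jarid2, a subunit of the Polycomb repressive complex (12.24 in clone 2 and 12.39 in clone 1). Dnmt3l, the cofactor of the de novo methyltransferases, was 11.96 in clone 2 and 12.11 in clone 1, and the Polycomb subunit Eed 11.95 in clone 2 and 12.05 in clone 1. By these brightest probe sets the 4 were slightly lower in clone 2, but the other Trim28 probe set was 12.92 in clone 2 and 12.86 in clone 1, and 2 of the 3 Jarid2 probe sets were higher in clone 2. The maintenance methyltransferase Dnmt1, named after its values were seen, was 10.64 in clone 2 and 10.67 in clone 1, and its 3 probe sets differed by 0.03 or less.

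The regulators that differed most went in both directions. Zfp57, the zinc finger protein that protects imprints from demethylation, was 7.58 in clone 2 and 8.33 in clone 1, 1.68-fold lower in clone 2 by its single probe set. Arid4a, a chromatin protein known from mouse studies of the Prader-Willi imprinting centre, was 8.34 in clone 2 and 6.57 in clone 1, where it was below background, a difference of at least 3.22-fold. The other 2 Arid4a probe sets were below background and lower in clone 2. Its relative Arid4b was 8.28 in clone 2 and 7.67 in clone 1, and the histone demethylase Kdm1b, which is needed to set maternal imprints in oocytes, 8.02 in clone 2 and 7.53 in clone 1. The methyltransferase Dnmt3b, named after its values were seen, was 11.79 in clone 2 and 11.74 in clone 1 by its brightest probe set and 10.18 in clone 2 and 9.14 in clone 1 by another. The part of any of these in the clone difference of the cluster was not tested.

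Because Dlk1 belongs to the family of Notch ligands, that pathway was read too. Of 26 genes measured, 17 were above background in both clones, and 0 of these differed 2-fold. Clone 2 had the higher signal for 14 of the 17 and the lower for 3, and the median difference was 0.13. Over all 9614 genes above background in at least 1 clone, 63.8% had the higher signal there and the median was 0.09. The Notch median became 0.03 under quantile normalization, 0.05 under loess and 0.22 with arrays centred on their medians. A pathway difference apart from this general lean of the arrays was not tested. The receptors Notch4 (8.12 in clone 2 and 7.49 in clone 1), Notch3 (7.86 in clone 2 and 7.47 in clone 1) and Notch1 (7.60 in clone 2 and 7.25 in clone 1) and the ligand Jag1 (7.65 in clone 2 and 7.30 in clone 1) were higher in clone 2. The protease Adam10 was 9.39 in clone 2 and 9.0 in clone 1, and Adam17 8.41 in clone 2 and 8.43 in clone 1. Rbpj, the DNA-binding factor of the pathway, was 11.85 in clone 2 and 11.73 in clone 1, and its coactivator Maml1 8.55 in clone 2 and 8.25 in clone 1. Dlk2, the paralogue of Dlk1, was below background at 6.27 in clone 2 and 6.56 in clone 1 and was named after its values were seen.

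The RNAs of most listed genes that process, or act with, small RNAs like those of Rian and Mirg were above background in both clones. Of 15 genes measured, 12 were above background in both, with a median difference of 0.12 and 0 at 2-fold. This median is near the 0.09 of all genes above background in at least 1 clone. It became 0.06 under quantile normalization, 0.08 under loess and 0.2 with arrays centred on their medians. Drosha, the nuclear microRNA nuclease, was 11.16 in clone 2 and 11.12 in clone 1. Ago2, an effector of microRNAs, was 9.98 in clone 2 and 9.21 in clone 1 by its brightest probe set, and 8.80 in clone 2 and 9.43 in clone 1, in the other direction, by the next. Ago1 was 8.49 in clone 2 and 8.09 in clone 1, and Tarbp2, a partner of the nuclease Dicer, 9.22 in clone 2 and 8.83 in clone 1. Lin28a, which blocks let-7 maturation, was 9.29 in clone 2 and 9.76 in clone 1 by its brightest probe set. By its other probe set it was 9.13 in clone 2 and 8.92 in clone 1, in the other direction. The core proteins of box C/D small nucleolar particles, Fbl (12.07 in clone 2 and 11.98 in clone 1), Nop56 (11.43 in clone 2 and 11.29 in clone 1) and Nop58 (10.81 in clone 2 and 11.00 in clone 1), lay within 0.19 of each other between the clones.

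Meg3 and Dlk1 are also expressed in mesenchymal and other differentiated cells, so the markers of such cells were read beside the members. Of 16 measured markers of fibroblast feeders, 2 were above background in both clones, Thy1 and Pdgfrb, and Acta2 was so in clone 2 alone. The linear signals of the 16 summed to 769 in clone 2 and 778 in clone 1. The collagen Col1a1 was 4.09 in clone 2 and 4.68 in clone 1, and Col3a1 3.61 in clone 2 and 4.31 in clone 1, all below background. Other collagens of the list had the opposite direction, also below background: Col6a3 was 4.65 in clone 2 and 3.88 in clone 1, Col6a1 5.19 in clone 2 and 4.82 in clone 1, and Col1a2 5.63 in clone 2 and 5.46 in clone 1. Acta2 was 6.35 in clone 2 and 5.99 in clone 1. Of the neural markers 2 of 10 were above background in at least 1 clone, Nes and Tubb3, and the 10 summed to 448 in clone 2 and 384 in clone 1. Of the primitive endoderm markers 5 of 12 passed, 3 higher and 2 lower in clone 2, and the 12 summed to 3018 in clone 2 and 2652 in clone 1. The brightest, the collagen Col4a1, weighs most in this sum, at 10.53 in clone 2 and 10.12 in clone 1. Lower in clone 2 were Hnf4a (6.93 in clone 2 and 7.42 in clone 1) and Dab2 (8.26 in clone 2 and 8.32 in clone 1). Of the mesoderm markers 3 of 10 passed, and the 10 summed to 858 in clone 2 and 894 in clone 1. One of them, Mesp1, a transcription factor of early mesoderm, met the 2-fold rule in the other direction, at 6.04 in clone 2, below background, and 7.30 in clone 1. Of 8 trophoblast markers 1 passed, and they summed to 424 in clone 2 and 460 in clone 1. The presence of neural or primitive endoderm cells, and any part of them in the difference of the cluster, was not tested.

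Genes were ranked by the distance of their 2 signals from those of the brightest Meg3 probe set, whose difference was smaller than those of the other bright Meg3 probe sets. This ranking uses 2 samples and therefore says only that level and difference are close. The nearest was Terf1, a telomere-binding protein, at 10.52 in clone 2 and 9.97 in clone 1, a distance of 0.032. The next were Cdc23, a subunit of the anaphase-promoting complex (10.59 in clone 2, at a distance of 0.045), and Zfp979, a zinc finger gene (10.51 in clone 2 and 9.96 in clone 1). Pbrm1, a subunit of a chromatin remodelling complex (10.55 in clone 2 and 9.92 in clone 1), and Septin2, a cytoskeletal protein (10.50 in clone 2 and 9.94 in clone 1), followed. None of the 5 lies on chromosome 12.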

How the data were processed

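Gene expression was measured on arrays in Klf5-overexpressing ES clones 2 and 1, 1 array each. Transcriptome Analysis Console was used, per the submitters' processing notes. The authors deposited 1 normalized log2 signal per probe set with 2 decimals. Its background correction, summarisation, normalization and log base were not given in the sources used here. Base 2 was inferred from values between 2.21 and 14.38, and every fold rests on it. The column medians were 5.18 in clone 2 and 5.27 in clone 1.

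Of 45037 probe sets, 34945 had 1 symbol in the platform annotation, 932 had several, of which 0 named a member, and 9160 are unnamed here. Entrez identifiers of 34741 matched the RefSeq gene table of GRCm38.p6, which changed 0 symbols. Values were used as deposited, and a gene was represented by its brightest probe set by the mean of both clones. Bounds ("at least N-fold") raise the dimmer clone to its background level. Of 58 background genes listed, 49 were measured.

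The rule for named genes took every probe set of the members, all Klf5 probe sets, and from each list the genes that differed 2-fold and up to 4 with the largest difference and 4 with the highest signal. The members and lists were chosen with earlier results of these data known. The number of arrays limits the precision, and no test was made. Calls were checked on simulated data. Alternatives were 3 scalings (median centring, quantile, loess with a span of 0.3), other background levels, all probe sets of a gene averaged, the omission of probe sets ending in _s_at or _x_at, and each clone alone. Python 3.11.15, numpy 2.4.6, pandas 2.3.3 and statsmodels 0.14.6 were used.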

Additional observations from a re-analysis of the deposited data

How the results depend on the processing

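Of 98 alternative values, 89 stayed within 1.5 times the count or within 0.281, the SD of the clone difference over probe sets above background. That SD is of single probe sets and is wide for list medians near 0. The changes of sign of the imprinted and neighbour medians counted as staying, so the 89 says little about the lists. The number of cluster probe sets 2-fold higher in clone 2 was 3 rather than 5 under quantile normalization, under loess, with background at the 99th percentile and without probe sets ending in _s_at or _x_at. With background from sensory receptor probe sets, 14 probe sets rather than 7 were above background in both clones. Asked of a single clone, the count was 7 to 10. The median difference of the cluster probe sets, 0.955 over the 10 above background in at least 1 clone, was 0.52 with the sensory receptor background, 0.46 over all 19 probe sets, which brings in the dim ones, and 0.64 without Meg3. Of those 10, 3 passed only through clone 2, with clone 1 signals below background. The 7 above background in both clones had a median of 0.88. With the higher background level asked of both clones, an alternative chosen after the data were seen, Dlk1 was not above background and the median was 1.03. The Rian difference was 0.52 as a mean over its 4 probe sets. By the scalings and the mean over probe sets, Meg3 ran from 0.47 to 0.66, Mirg from 0.51 to 0.83, and Dlk1 from 0.09 to 0.41, all higher in clone 2. Scalings of the Notch, microRNA, non-coding and parent-of-origin lists were also chosen after the data were seen. No paired analysis was possible because there is 1 group and no test. Signal over background limits Dlk1, the dim Meg3 probe sets and 1 Mirg probe set. Without wild-type arrays the data do not show which clone departs from the parent cells.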
